A study of Drosophila melanogaster with 3 samples.

Results

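The optimal list of a Neu2 chromatin immunoprecipitation sequencing (ChIP-seq) study in Drosophila melanogaster held 1471 peaks, of which 226 (15.4%, 95% exact Clopper-Pearson interval 13.6 to 17.3) had their summit outside every protein-coding gene body and more than 500 bp from the nearest protein-coding transcription start site (TSS). These 226 peaks between protein-coding genes are described here. Their choice used position alone, taken from the dm6 coordinates of the summits and the Ensembl release 115 annotation, and no measured value. The remaining 1245 optimal peaks lay at promoters (794) or in gene bodies (451). The material was whole embryos of mixed sex, 2 to 4 h old, from a transgenic line in which GFP is fused to the C-terminus of Neu2. Chromatin was sonicated to fragments of 200 to 800 bp and precipitated with an antibody to GFP. All 3 biological replicates belong to this one group, so the comparisons below run between positions in the genome, with the replicates giving the spread. In whole embryos, binding in fewer nuclei and weaker binding per nucleus cannot be told apart.

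Neu2 belongs to the ZAD family of zinc-finger proteins, a large insect family that combines a zinc-finger-associated domain with C2H2 fingers. DNA between protein-coding genes of the fly holds enhancers, insulators, transposable elements and genes of non-coding RNAs. Enhancers of developmental genes often lie several kilobases from the promoter they act on, and many long non-coding RNA genes of the fly overlap such elements.

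The summit base with 50 bases on either side is given for 12 of these peaks on build dm6, plus strand, from RefSeq's genome sequence. The first 4 are among the strongest that can be shown, the next 6 carry a known word or lie beside a patterning gene, and the last pair lies at copies of one small nuclear RNA gene. Capitals mark matches, on either strand, to the words of the DNA replication-related element (DRE, TATCGATA), of CTCF (AGGTGGCG), of core promoter Motif 1 (GGTCACAC), of Su(Hw) (TGCATAC) and of Zelda (CAGGTAG), to paired copies of the BEAF-32 word (CGATA) and to the set CCACCAAA, CCACTAAA, CTACCAAA and CTACTAAA. The peak between hth and CG6465, strongest of all 226, lay at chr3R:10665076-10665176, and the one between Cyt-c1L and eEF1gamma at chr3R:29214407-29214507. The peaks between CG4004 and Paics lay at chrX:12751382-12751482 and chrX:12752332-12752432. The others lay at chr2L:20148532-20148632 (CG10651 and CG17571), chr3R:23145831-23145931 (hh and unk), chr2L:3832485-3832585 (slp1 and slp2), chr2L:4811929-4812029 (slf and CG15629), chr3R:4833522-4833622 (CG14659 and opa) and chr3R:16798835-16798935 (Glut3 and abd-A). The windows at the U1 genes were chr3R:23859445-23859545 and chr2L:901436-901536.
hth and CG6465: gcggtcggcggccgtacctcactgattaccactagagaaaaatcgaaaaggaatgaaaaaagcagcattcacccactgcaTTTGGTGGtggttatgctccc
Cyt-c1L and eEF1gamma: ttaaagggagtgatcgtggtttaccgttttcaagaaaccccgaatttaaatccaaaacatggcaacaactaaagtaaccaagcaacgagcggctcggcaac
CG4004 and Paics, nearer CG4004: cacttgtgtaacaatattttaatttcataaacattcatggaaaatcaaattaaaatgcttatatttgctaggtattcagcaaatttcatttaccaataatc
CG4004 and Paics, second: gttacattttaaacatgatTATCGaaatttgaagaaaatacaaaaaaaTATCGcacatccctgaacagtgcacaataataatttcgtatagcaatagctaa
CG10651 and CG17571: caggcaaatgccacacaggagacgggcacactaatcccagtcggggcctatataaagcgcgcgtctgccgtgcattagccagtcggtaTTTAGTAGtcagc
hh and unk: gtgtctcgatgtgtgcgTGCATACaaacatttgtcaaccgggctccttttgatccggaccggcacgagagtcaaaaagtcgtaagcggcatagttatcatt
slp1 and slp2: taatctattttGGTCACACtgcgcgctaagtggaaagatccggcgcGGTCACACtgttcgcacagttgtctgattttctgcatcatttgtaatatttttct
slf and CG15629: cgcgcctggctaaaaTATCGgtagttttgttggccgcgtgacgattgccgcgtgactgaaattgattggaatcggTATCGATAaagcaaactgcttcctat
CG14659 and opa: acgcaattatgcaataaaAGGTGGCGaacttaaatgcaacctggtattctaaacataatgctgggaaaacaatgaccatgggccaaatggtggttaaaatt
Glut3 and abd-A: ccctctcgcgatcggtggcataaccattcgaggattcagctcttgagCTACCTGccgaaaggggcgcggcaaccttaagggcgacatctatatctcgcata
snRNA:U1:95Ca: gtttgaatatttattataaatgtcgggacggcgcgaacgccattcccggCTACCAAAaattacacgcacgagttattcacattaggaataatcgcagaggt
snRNA:U1:21D: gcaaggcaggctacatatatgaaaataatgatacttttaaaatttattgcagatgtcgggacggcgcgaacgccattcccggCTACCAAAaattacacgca

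The strongest peak between genes lay 25558 bp from hth (homothorax, FBgn0001235), the gene of a homeodomain cofactor of Hox proteins, and 10434 bp from CG6465 (FBgn0037818). Its pooled signal, the value the authors deposited for each peak, was 469 and ranked 20 among all optimal peaks. In the replicates its signal was 221, 134 and 111, on scales that differ between libraries. Divided by the median signal at all optimal peaks of the same replicate (47.0, 47.8 and 33.1 in replicates 1 to 3), these are relative signals of 4.69, 2.80 and 3.37, or 3.62 ± 0.970 (SD, n = 3). All 3 replicates placed it well above their median peak, and replicate 1 was highest.

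The second lay in an interval of only 1340 bp between the facing 3′ ends of blw, the gene of the alpha subunit of mitochondrial ATP synthase, and CycB, the gene of the mitotic cyclin B. Its summit was 807 bp from blw and 534 bp from CycB. The pooled signal was 435, the relative signals were 3.85, 3.22 and 3.26, and their mean was 3.44 ± 0.350 (SD, n = 3). Its replicates differed by less than those of the hth peak. The third lay between Cyt-c1L, a cytochrome c1-like gene, and eEF1gamma, the gene of a translation elongation factor subunit, with a pooled signal of 389 and relative signals of 3.34, 3.08 and 2.54. It was 5715 bp from the TSS of eEF1gamma but 105 bp from a long non-coding RNA gene, lncRNA:CR31044.

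A pair of strong peaks 950 bp apart lay between CG4004 and Paics, the gene of a purine synthesis enzyme, on X. The one inside lncRNA:Vinr had a pooled signal of 361 and relative signals of 3.67, 3.06 and 1.70. The one inside lncRNA:CR44619 had a pooled signal of 348 and relative signals of 3.19, 2.54 and 2.58. Replicate 3 was the lowest at the Vinr peak, where the SD was 1.01 over the 3 replicates, against 0.366 at its neighbour.

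The 12 strongest peaks included one beside Su(z)2, and the next in signal after the 12 lay beside Psc. Su(z)2 and Psc are neighbouring genes of related Polycomb group proteins. Polycomb group genes were not one of the gene lists, so no count is given for them. The peak between Su(z)2 and CG13323 had a pooled signal of 331 and relative signals of 2.80, 2.50 and 2.16. The peak between CG13321 and Psc, the gene of a Polycomb repressive complex 1 subunit, had a pooled signal of 269 and relative signals of 2.17, 2.04 and 2.06. At 2.09 ± 0.0688 (SD, n = 3), its replicates lay closer together than those of any of the 12 strongest.

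The other members among the 12 strongest had pooled signals between 272 and 354. The peak nearest RasGAP1, the gene of a Ras GTPase-activating protein, was 718 bp from its TSS and had relative signals of 2.73, 2.83 and 2.63, which lie close together. The peak between CG10651 and CG17571 stood in a wide interval of 121064 bp, with relative signals of 3.23, 2.19 and 2.95. The peak between mtSSB and tara (taranis) was 3150 bp from tara, with relative signals of 2.59, 2.44 and 2.29. Replicate 3 was lowest at both peaks that follow. The peak between CG43131 and RabGGTa had relative signals of 2.63, 2.65 and 1.88. The peak between COX7AL2 and CG31668 had relative signals of 2.77, 2.41 and 2.09. At the peak between NimC3, a gene of a phagocytic receptor of the Nimrod family, and hll, replicate 1 was lowest instead, with relative signals of 1.36, 2.56 and 2.67. That peak lay in lncRNA:CR31840.

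**Figure D1:**
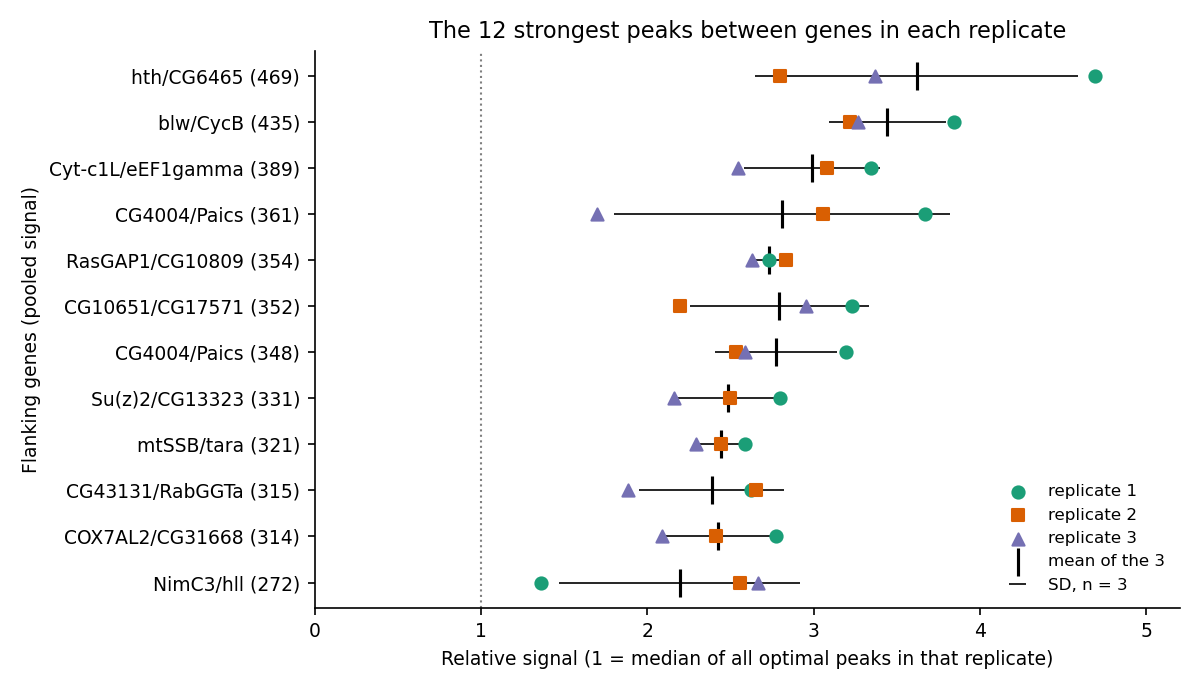
Relative signal (x axis, 1 is the median of all optimal peaks in that replicate) of the 12 strongest peaks between genes that were matched in every replicate, 1 row per peak with its flanking genes and pooled signal; symbols are the 3 replicates, the tick is their mean and the line 1 SD. Every value lies above 1, from 1.36 (NimC3 and hll, replicate 1) to 4.69 (hth and CG6465, replicate 1).

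Across all 226 peaks the pooled signal had a median of 116 and lay between 88.6 and 469. The other optimal peaks had a median of 120 and lay between 88.6 and 998, and promoter peaks alone had a median of 124. None of the 10 strongest optimal peaks, 1 of the 20 strongest and 14 of the 100 strongest lay between genes. The relative signal had a median of 0.969 in replicate 1, 0.969 in replicate 2 and 1.00 in replicate 3 for the peaks between genes, against 1.01, 1.01 and 0.999 for the other optimal peaks. The difference averaged -0.0238 over the replicates and did not exceed their spread (exact sign-flip permutation test, two-sided, p = 0.5). The smallest p this exact test can give with 3 replicates is 0.25.

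A replicate supported a peak if it had a summit within 200 bp among its 1471 strongest calls. All 3 replicates matched 90 of the 226 peaks between genes (39.8%, 95% interval 33.4 to 46.5) and 44.0% of the other optimal peaks, where 43.4% of all optimal peaks were matched. A further 82 peaks between genes were matched in 2 replicates, 50 in 1 and 4 in none. Replicate 1 matched 74.3% of the peaks between genes (77.6% of all optimal peaks), replicate 2 matched 73.0% (71.2% of all) and replicate 3 matched 66.8% (67.8% of all). The difference from the other optimal peaks was -3.90, 2.09 and -1.22 percentage points in replicates 1, 2 and 3, with both signs among them (exact sign-flip permutation test, two-sided, p = 0.75). In the whole lists of 30000 calls, 213 of the 226 (94.2%) had a call in every replicate, as did 95.3% of the other optimal peaks.

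Support followed signal among the peaks between genes, and both use the same libraries. Of the 57 strongest, 54 were matched in every replicate, as were 27 of the next 56, 7 of the 56 after those and 2 of the 57 weakest. Ranked over the peaks between genes, which share libraries and are not replicates, signal gave a Spearman's rho of 0.454 for replicates 1 and 2, 0.434 for 1 and 3, and 0.452 for 2 and 3. Of the 226 peaks, 17 had another optimal summit within 440 bp, all at up to 208 bp, so that their intervals overlap and they can share 1 call in a replicate. Both overlapping peaks beside trbl, for example, took relative signals of 1.21, 1.37 and 1.40 from the same calls. Counting each run of overlapping peaks between genes once left 218.

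**Figure D2:**
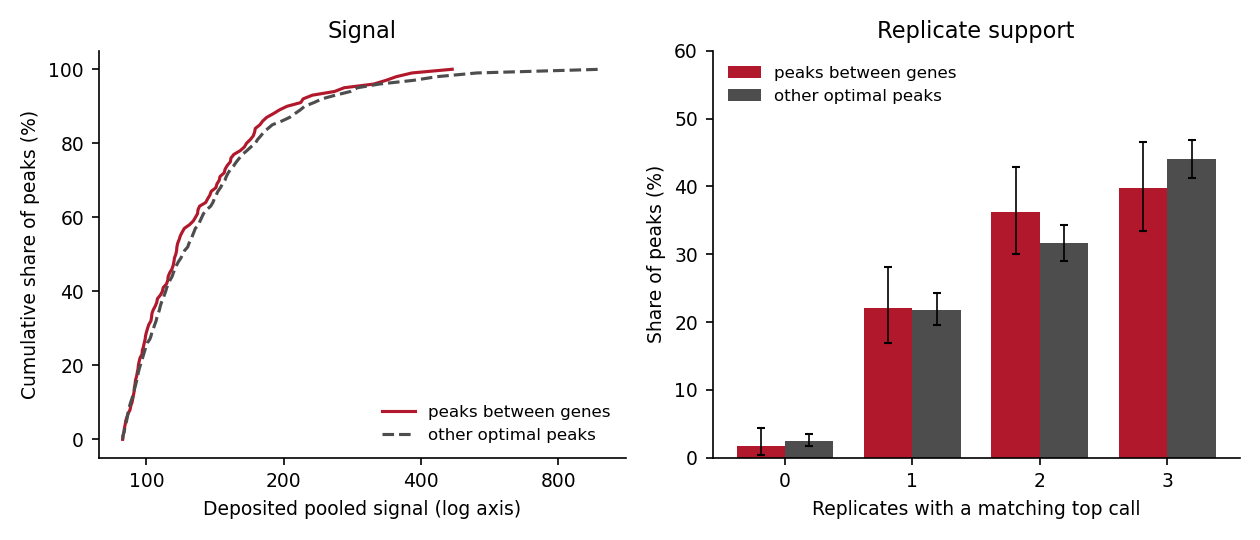
Left, cumulative share of peaks (y axis, %) against the deposited pooled signal (log x axis) for the 226 peaks between genes (red) and the 1245 other optimal peaks (dashed); right, share of each (y axis, %) matched in 0 to 3 replicates (x axis), bars with 95% exact intervals. The curves run close together up to the strongest peaks, where the other optimal peaks reach 998 and the peaks between genes 469, and the intervals of the shares overlap at each number of replicates.

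The distance to the nearest protein-coding TSS had a median of 5245.5 bp among the peaks between genes, with quartiles of 2124 and 11550 bp. As background, 6053 calls of the pooled relaxed list were used, which met the same rule of position and lay more than 1000 bp from any optimal peak. Their median was 5670 bp. Of the peaks between genes 116 (51.3%) lay more than 5000 bp from a TSS. Positions beyond 20000 bp held 21 of the 226 (9.29%), against 15.8% of the background calls. The median signal of these 21 was 99.5 and 4 of them were matched in every replicate. At 500 to 2000 bp the median signal was 112 and 28 of 55 were matched, a difference that was not tested. The farthest pair lay between CG42598 and CG40228, at 275292 and 264913 bp from a TSS, with pooled signals of 88.8 and 96.0, and each was matched in 1 replicate.

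Just inside the limit of 500 bp were the peaks between CheB93a and CheB93b at 516 bp (signal 99.5), between CG17896 and CG17778 at 537 bp (253) and between CG10660 and CG10657 at 549 bp (143). Just outside it were the peaks at 496 bp from nrv1 (128), 483 bp from e(y)2b (90.4) and 477 bp from croc (165), which counted as promoter peaks.

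**Figure D3:**
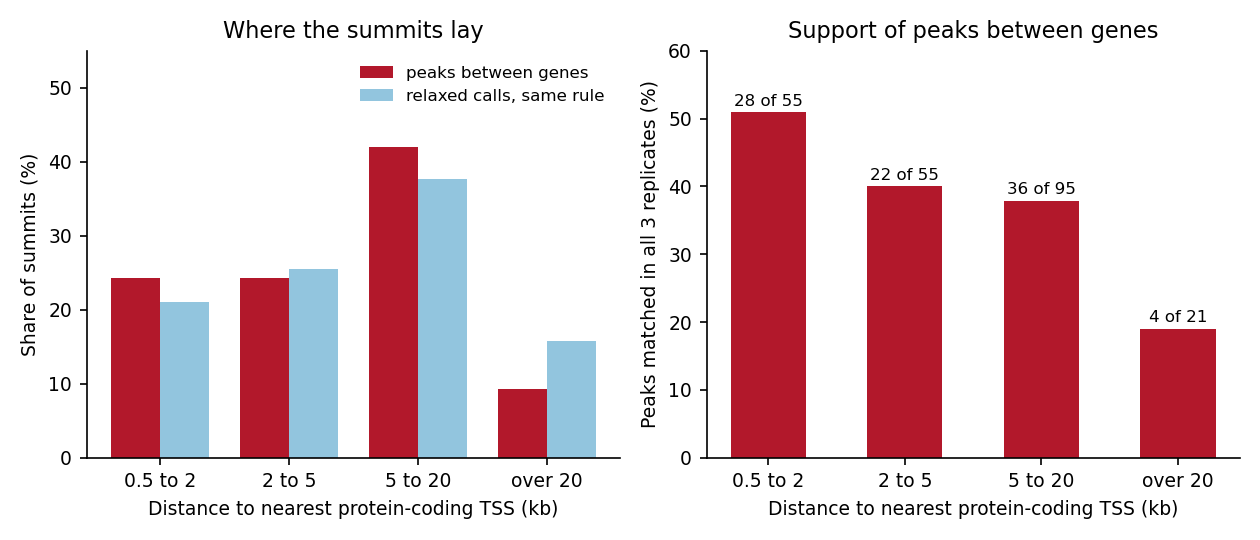
Left, share of summits (y axis, %) by distance to the nearest protein-coding TSS (x axis, kb) for the 226 peaks between genes (red) and the 6053 background calls under the same rule (blue); right, share of the peaks between genes in each distance class that was matched in all 3 replicates, with counts. The share of peaks between genes was below that of the background calls at 2 to 5 kb (24.3% against 25.5%) and over 20 kb (9.29% against 15.8%), and 28 of 55, 22 of 55, 36 of 95 and 4 of 21 were matched from near to far.

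The flanking genes of the 226 peaks pointed in no common direction. The genes on both sides lay on the same strand at 106 peaks (46.9%), against 50.4% of the background calls. They diverged at 63 (27.9%, against 27.7%) and converged at 53 (23.5%, against 20.8%). The nearer gene faced the peak with its 5′ end at 114 peaks and with its 3′ end at 112. A 3′ end within 1000 bp was the nearest gene edge at 34 peaks (15.04%, 95% interval 10.6 to 20.4), as between blw and CycB, against 11.5% of the background calls. The remaining 4 peaks had a flanking gene on 1 side only, at the end of an arm.

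Of the arms, 2L held the most, with 56 of the peaks between genes. This was 24.8%, against 19.6% of all optimal peaks and 21.7% of the background calls. In the same order, 2R held 38 (16.8%, against 19.03% and 20.02%) and 3L held 52 (23.0%, against 20.6% and 26.2%). 3R held 50 (22.1%, against 24.8% and 21.2%). Chromosome 4 held 5 (2.21%, 95% interval 0.722 to 5.09, against 0.884% and 1.12%). X held 25 (11.1%, 95% interval 7.29 to 15.9), against 15.02% of all optimal peaks and 9.76% of the background calls. On 3L, 3R and X the direction depended on which set was compared. On every arm the 95% interval covered both shares.

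Non-coding genes lay near 53 of the 226 peaks (23.5%, 95% interval 18.1 to 29.5), counted as a summit inside such a gene or within 500 bp of it. This compares with 13.4% of the background calls (12.5 to 14.3) and with 10.5% of all bases that meet the position rule. The summit lay inside the gene at 30 peaks (13.3%, against 8.99% of the background calls), and within 500 bp of a non-coding TSS at 34 (15.04%, against 6.05%). At these 53 peaks the nearest non-coding gene was of the long or other class in 48 cases (21.2% of the 226, against 11.7% of the background calls). It was a small nuclear RNA gene in 2 (0.885%, against 0.0991%) and a tRNA gene in 2 (0.885%, against 0.396%). An antisense RNA gene was nearest in 1 (0.442%, against 0.430%). No summit lay within 500 bp of a microRNA, snoRNA or rRNA gene or a pseudogene as the nearest non-coding gene. A count of 0 of 226 allows a share of up to 1.33%. The background shares, in the same order, were 0.0826%, 0.116%, 0% and 0.578%, all under that limit, so these counts of 0 show no difference. Peaks near non-coding genes had a median signal of 115, and the others between genes 117.

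The same comparison was made within each replicate list, which gives it an error. Calls between genes among the 1471 strongest of a list lay near a non-coding gene in 22.5%, 24.1% and 20.2% of cases in replicates 1, 2 and 3, against 12.3%, 16.5% and 14.1% of the weaker calls between genes of the same list. The difference was 7.97 ± 2.06 percentage points (SD, n = 3) and had the same sign in 3 of 3 replicates. At non-coding TSSs the strongest calls held 13.3%, 14.7% and 14.0%, and the weaker calls 5.36%, 7.87% and 6.34%, a difference of 7.48 ± 0.618 percentage points. Each difference was over 3 times its SD, and the exact sign-flip permutation test gave its smallest possible p of 0.25 (adjusted p = 0.275 over 11 measures). The share of calls that lay between genes at all was lower among the strongest calls, at 16.3%, 15.8% and 15.5%, against 23.7%, 20.4% and 22.5% of the weaker ones.

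**Figure D4:**
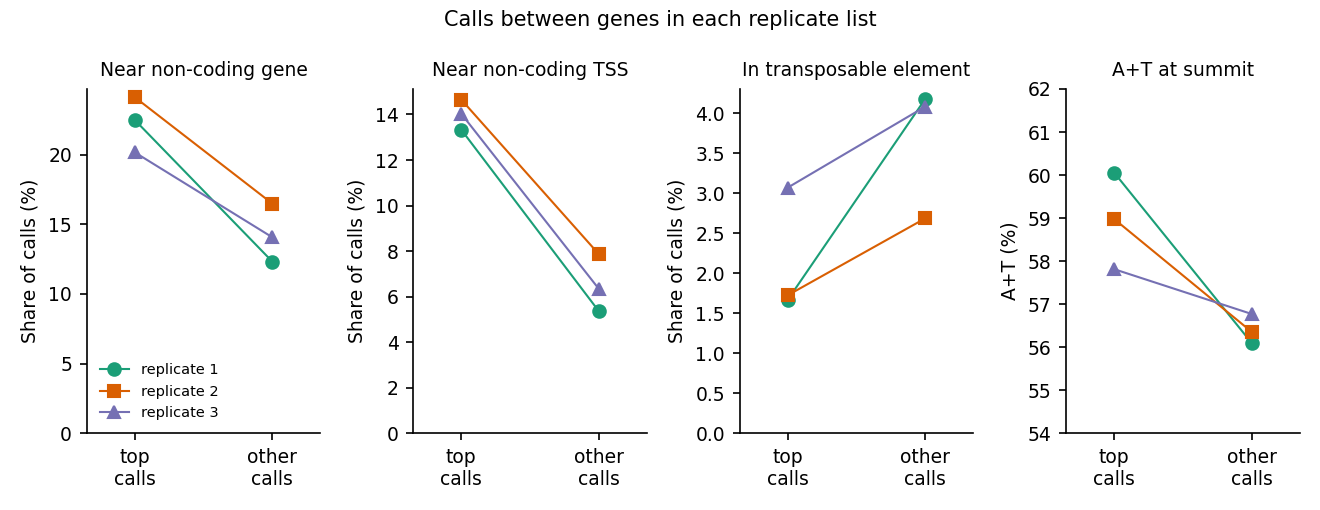
Calls between genes in each replicate list, with the 1471 strongest calls of the list (top calls) left of the weaker ones (other calls): share near a non-coding gene, near a non-coding TSS and in a transposable element (%, axes from 0), and A+T content of the summit with 50 bases on either side (%, axis from 54 to 62). Lines join the values of 1 replicate; in each of the 3 replicates, top calls were higher in both non-coding shares and in A+T content, and lower in the share within transposable elements.

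Some of the 53 peaks lay at long non-coding RNA genes of known loci. A peak in lncRNA:bxd, a transcript of the bithorax complex, had a pooled signal of 114, and a peak in lncRNA:Hsromega, the nuclear heat-shock transcript, had 111. A peak 190 bp from lncRNA:flam, the precursor of the flamenco piRNA cluster, had 107. These were chosen after their values were seen, and all lay near the median of the 226. Within the Antennapedia complex, a peak between ftz and Antp in lncRNA:CR44931 had a pooled signal of 149 and relative signals of 1.24, 1.39 and 0.916.

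The pair at U1 genes, which encode the RNA of the U1 spliceosomal particle, had pooled signals of 115 at snRNA:U1:95Ca and 107 at snRNA:U1:21D. Relative signals were 0.536, 1.18 and 0.921 at snRNA:U1:95Ca and 0.545, 0.923 and 1.11 at snRNA:U1:21D. Replicate 1 was lowest at both, and neither was among its strongest calls. The summit bases with 220 bases on either side share a run of 172 identical bases, longer than the U1 RNA itself, so reads within it could come from either copy and both values are uncertain. Of the 5 U1 genes in the annotation only this pair had an optimal peak within 500 bp. The pair of tRNA genes, tRNA:Thr-TGT-2-3 and tRNA:Val-CAC-2-3, had peaks with signals of 98.9 and 90.0, each matched in 1 replicate, and the peak near asRNA:CR45281 had 94.1.

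Transposable elements held 4 of the 226 summits (1.77%, 95% interval 0.484 to 4.47), against 3.95% of the background calls and 10.5% of all bases that meet the position rule. In the replicate lists the strongest calls lay in such elements in 1.67%, 1.72% and 3.07% of cases and the weaker calls in 4.18%, 2.69% and 4.08%, lower in 3 of 3 (exact sign-flip permutation test, two-sided, p = 0.25, adjusted p = 0.275). Reads from repeated elements often map to several places, and how the authors treated them is not given in the sources used here.

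The A+T content of the summit with 50 bases on either side averaged 60.04% at the peaks between genes, 60.6% at the other optimal peaks, 56.3% at the background calls and 57.7% in 452 windows centred 300 bp to either side of the peaks between genes. In the replicate lists the strongest calls between genes had 60.1%, 59.0% and 57.8%, and the weaker ones 56.1%, 56.4% and 56.8%. The difference was 2.54 ± 1.46 percentage points (SD, n = 3) and smallest in replicate 3.

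Words of promoter and insulator proteins were rare at the summits between genes. The DRE, bound by the promoter factor DREF, was found at 1 of 226 (0.442%), against 3.86% of the other optimal peaks and 0.413% of the background calls. The match lay between slf and CG15629, 34 bp from lncRNA:CR45297, with a pooled signal of 147 and relative signals of 0.809, 1.17 and 1.38. The DRE contains CGATA on both strands and so also counts as a pair of BEAF-32 words. Such pairs were found at 4 peaks (1.77%), against 8.996% of the other optimal peaks and 1.22% of the background calls, among them the peak in lncRNA:CR44619. Motif 1, a core promoter word bound by M1BP, was found at 1 peak (0.442%), against 1.37% of the other optimal peaks and 0.215% of the background calls, with 2 copies in the window between slp1 and slp2 printed above. Any of the DRE, CTCF, Motif 1, Su(Hw) or BEAF-32 pair was found at 13 peaks (5.75%), against 12.4% of the other optimal peaks, 3.47% of the background calls and 1.99% of the windows 300 bp away.

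CTCF, an insulator protein, had its word at 4 of the 226 (1.77%, 95% interval 0.484 to 4.47). The share was 0.723% at the other optimal peaks, which the interval covers, and 0.297% at the background calls. The strongest of these lay 2275 bp from CG14659 in its interval with opa (odd paired), a pair-rule gene, with a pooled signal of 151 and relative signals of 1.26, 0.959 and 1.13. The Su(Hw) word was found at 4 (1.77%), the same share as in the other optimal peaks (1.77%) and the background calls (1.77%). The word of Zelda, the activator of early zygotic genes, was found at 5 (2.21%, 95% interval 0.722 to 5.09). The interval covers the share at the other optimal peaks (0.723%) and at the background calls (0.843%). Among the 5 was the peak between Glut3 and abd-A. The set CCACCAAA, CCACTAAA, CTACCAAA and CTACTAAA was found at 16 (7.08%, 95% interval 4.10 to 11.2). This compares with 4.66% of the other optimal peaks, which the interval covers, 2.16% of the background calls and 1.55% of the windows 300 bp away. The 16 include both U1 peaks, where the match lies in the run of bases that the copies share. In the replicate lists that set was found at 7.50%, 4.74% and 6.58% of the strongest calls between genes and at 2.37%, 1.84% and 1.71% of the weaker ones, a difference of 4.30 ± 1.22 percentage points (SD, n = 3). The A+T-rich word ATTTAA was found at 20.8% of the peaks between genes (95% interval 15.7 to 26.7), against 22.3% of the other optimal peaks, 13.6% of the background calls and 14.4% of the windows 300 bp away. CTTAAA was found at 11.5% (7.65 to 16.4), against 12.05%, 7.78% and 7.30% of the same sets. TATAAA was found at 8.41%, against 13.8%, 10.2% and 11.5%, and GAGAGAG at 2.21%, against 1.93%, 1.09% and 2.65%. A word is only a match of letters in these windows.

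Segmentation genes flanked some of the peaks. The 226 peaks had 338 distinct flanking genes, 2.42% of the 13945 protein-coding genes, and 26 of them (7.69%) carried an optimal peak at their own promoter, against 7.36% of all protein-coding genes. Of 31 listed genes of early patterning and segmentation, 12 flanked a peak (Dfd, btd, croc, eve, ftz, hh, oc, opa, ptc, slp1, slp2 and wg), beside 17 peaks, while 29 of the 31 (93.5%) flanked at least 1 of the 6053 background calls. Of all protein-coding genes 2.42% flanked a peak and 21.8% a background call. The 6053 background calls outnumber the 226 peaks, so the shares of a list are not on the same footing. Each list is given with both counts, and neither enrichment nor depletion was tested. The strongest of the 17 lay between hh, the gene of the Hedgehog ligand, and unk, and carried a Su(Hw) word. It was 3975 bp from the TSS of hh and had a pooled signal of 264 and relative signals of 1.55, 2.45 and 2.25, lowest in replicate 1. A peak between Wnt4 and wg (wingless), both genes of Wnt ligands, had a pooled signal of 130 and relative signals of 1.07, 1.26 and 1.08.

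The sloppy paired locus held 4 peaks. slp1 and slp2 encode forkhead transcription factors that act in segmentation. Between them lay peaks with pooled signals of 128 and 182, and between slp2 and TTLL4B peaks with 145 and 184, each of this second pair inside a long non-coding RNA gene (lncRNA:CR45449 and lncRNA:CR44078). All 4 were matched in every replicate. Relative signals were 2.12, 1.08 and 0.899 at the Motif 1 peak, where replicate 1 was highest, and 1.39, 1.27 and 1.56 at the peak near TTLL4B.

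Of 14 listed Hox and Hox-like genes, 6 (42.9%: Antp, Dfd, Scr, abd-A, eve and ftz) flanked a peak, with 6 peaks beside them. Dfd, eve and ftz were also counted among the patterning genes above. Of the same 14, 13 (92.9%) flanked a background call. The strongest of the 6 peaks lay 8329 bp from abd-A, with a pooled signal of 196 and relative signals of 1.56, 1.75 and 1.14, all above the replicates' median peak. A peak 693 bp from CG12134 and 5846 bp from eve had a pooled signal of 102 and relative signals of 0.873, 1.14 and 0.454. A peak between Antp and Sodh1 had a pooled signal of 120 and relative signals of 0.314, 1.39 and 1.10, with replicate 1 the lowest.

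Genes of dorsoventral patterning were beside 7 peaks, with 5 of 24 listed genes (20.8%: Doc1, Doc2, esg, pyr and ths), while 17 of the 24 (70.8%) flanked a background call. pyr and ths encode fibroblast growth factor ligands, and the peak between them had a pooled signal of 172 and relative signals of 1.34, 1.29 and 1.55. Doc1 and Doc2 encode T-box factors, and 3 peaks between them had pooled signals of 105, 103 and 98.0, none matched in every replicate. Other developmental transcription factors gave 16 of 75 listed genes (21.3%) beside 20 peaks, hth among them, while 60 of the 75 (80.0%) flanked a background call. The peaks beside SoxN (190), C15 (154) and noc (150), genes of a Sox, a homeobox and a zinc-finger factor, followed hth in signal. They lay 16441, 7535 and 29569 bp from these genes. The C15 peak was nearer to sp3, at 579 bp from its TSS, and the noc peak nearer to CG15283, at 10368 bp. Ligands, receptors and transducers of signalling gave 8 of 42 (19.05%), while 20 of the 42 (47.6%) flanked a background call. hh, ptc and wg of the 8 were also counted among the patterning genes. Among the 8 were Delta, the gene of the Notch ligand, 13846 bp from a peak with a pooled signal of 136, and sty (Sprouty), an inhibitor of receptor tyrosine kinase signalling, 6129 bp from one with 126.

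Cell cycle genes were 3 of 20 listed (CycB, stg and trbl), while 2 of the 20 flanked a background call. These 2 counts cannot be set against each other, because background calls lay more than 1000 bp from any optimal peak. The short intervals of CycB with blw (1340 bp) and of stg with SP1029 (1374 bp) could therefore hold none. stg encodes the Cdc25 phosphatase String that sets the timing of mitosis in the embryo, and its peak lay 131 bp beyond its 3′ end, with a pooled signal of 95.8 and relative signals of 0.779, 0.881 and 0.866. trbl (tribbles), whose product promotes the breakdown of String, had 3 peaks in its interval with CG13248, with pooled signals of 159, 94.3 and 123. Of 93 genes of cytoplasmic ribosomal proteins 1 flanked a peak (1.08%: RpL38, signal 101.2) and 19 (20.4%) a background call. None of the 15 genes of the Enhancer of split and Bearded complex flanked a peak, while 14 (93.3%) flanked a background call. None of 15 genes of architectural proteins and none of 113 histone genes flanked a peak either, and only 2 (13.3%) and 2 (1.77%) of these flanked a background call. A peak between croc and Neu2 itself had a pooled signal of 118 and relative signals of 0.559, 1.01 and 1.40, and whether the tagged copy added to it was not tested.

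Some intervals held several peaks. The 226 peaks lay in 182 intervals, of which 148 held 1, 27 held 2, 5 held 3, 1 held 4 and 1 held 5. These counts include each of the 17 overlapping peaks described above, so some intervals hold several peaks only through an overlap. Another optimal summit lay within 5000 bp of 60 of them (26.5%), against 27.3% of the other optimal peaks. The interval between SoxN and CG32986 held 4, with 95.4, 100.4, 190 and 103, of which 1 was matched in every replicate. Intervals with 3 peaks were those of CG4004 and Paics, of Jhbp1 and CG14662, of CG4218 and CG3473, of trbl and CG13248 and of Doc2 and Doc1.

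**Figure D5:**
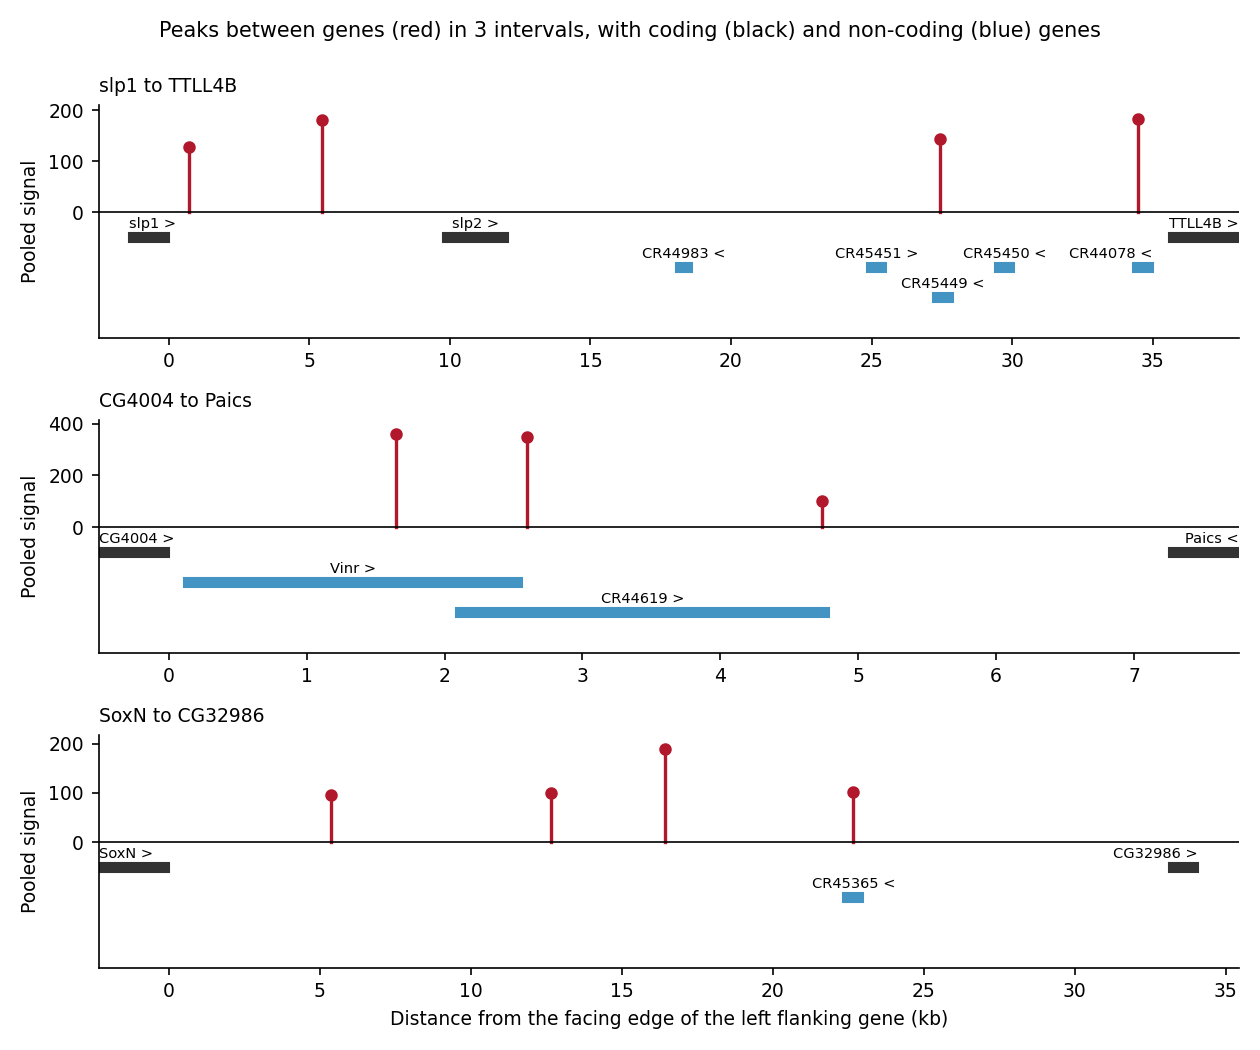
Peaks between genes (red, height is the deposited pooled signal on the y axis) in 3 intervals, by distance in kb from the facing edge of the left flanking gene (x axis), with protein-coding genes in black and non-coding genes in blue; arrowheads give the strand. Both peaks right of slp2 and all 3 peaks from CG4004 to Paics lie inside a non-coding gene.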

How the data were processed

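ChIP-seq of GFP-tagged Neu2 was analysed from the authors' peak lists on dm6. Per the file headers and the accompanying text, the authors deposited an optimal list past their irreproducible discovery rate (IDR) threshold and relaxed lists of 30000 calls for each replicate and for the pool. Signal is the authors' deposited value for a call and served to rank, filter and describe calls within one list. Between the replicate lists it was compared and averaged only as relative signal. The summit offset the authors deposited (another measure, in bp) gave the summits. No source used here gives the aligner, the peak caller, the IDR threshold or the normalization; the control library was not analysed here, and depth per library is unknown. Lists on dm3 and the deposited p- and q-values were not used.

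Positions were set against Ensembl release 115 (BDGP 6.54) on 6 arms with Python 3.11.15, numpy 2.4.6, pandas 2.3.3 and scipy 1.17.1. Replicate support meant a summit within 200 bp among the 1471 calls of highest signal in a replicate, and relative signal was the highest relaxed call within 200 bp divided by the median at all optimal peaks of that replicate. Differences per replicate were tested by an exact sign-flip permutation over 3 replicates. Intervals (95%, Clopper-Pearson) and limits for a count of 0 (3 counts) cover counting error only, and p-values measure only the spread between these 3 samples. Words were searched on both strands of the summit base with 50 bases on either side. Sequences are RefSeq's, build dm6.

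The peaks, the 10 gene lists and the words were chosen with earlier results of these data known. Of the listed symbols, 9 were matched through a synonym and 2 were not matched. The rule for naming peaks took the 12 strongest matched in every replicate, up to 3 of highest signal per non-coding class, the 2 farthest from a TSS, 3 on either side of the 500 bp limit, all intervals with 3 or more, up to 4 per gene list and up to 3 per word. One interval this rule names is not reported here. Scripts were tested on simulated data. Alternatives changed the distance limits, the peak set, the number of calls and the window, and left out each replicate.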

Additional observations from a re-analysis of the deposited data

How the results depend on the processing

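Differences per replicate were paired within each replicate, and with a single group of samples there was no second group to block by replicate number. Of the values recomputed under alternatives, 162 kept their direction and stayed within the interval or factor set for them, 35 moved and 4 changed sign. The number of peaks between genes fell by construction to 100 in the upper 735 of the optimal list, to 90 with a match in all 3 replicates and to between 112 and 124 when a replicate was left out. The share matched in all 3 replicates was 32.7% within 100 bp, 66.4% with 3000 calls per replicate, 94.2% with the whole lists, 81.0% in the upper 735 by signal, and between 49.6% and 54.9% without a replicate. The difference in share matched per replicate changed sign to 0.301 percentage points with 3000 calls and to 1.59 in the upper 735, and ranged from -2.56 to 0.434 without a replicate, positive without replicate 1. The share near a non-coding gene was 13.3% when only summits inside the gene counted, and lay between 22.3% and 25% without a replicate. The median distance to a TSS was 3946 bp with a limit of 250 bp, 4031 bp for peaks matched in all 3, and between 4045 and 4773.5 bp without a replicate. The A+T difference from the other optimal peaks (-0.564 percentage points) turned to 0.222 with a limit of 250 bp and ranged from -1.50 to -0.810 without a replicate. The share with any of 5 words was 2.21% with 25 bases on either side of the summit and 11.9% with 100. The share with another optimal peak nearby was 13.3% within 2000 bp and 42.5% within 10000 bp. Listed genes beside a peak numbered 45, and 21 in the upper 735, 22 with a match in all 3, and between 25 and 28 without a replicate. The causes were not tested beyond what the smaller sets give. Counting overlapping peaks once and using each replicate's own list, both chosen after seeing the data, moved no value past its limit. Depth is unknown, the scale of the signal differs between libraries, and 3 replicates cannot give p under 0.25.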
